A study of Mus musculus with 9 samples.

Results

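Glomerular expression of 10 prostaglandin genes was followed across 3 groups of mice: the cyclooxygenases Ptgs1 and Ptgs2, the terminal synthases Ptges, Ptgds, Hpgds and Ptgis, and the receptors Ptger1, Ptger4, Ptgfr and Ptgir. They were taken by the gene name of the probe, and they make up 10 of the 27195 genes named on the array and 19 of its 56605 probes. Of these probes 18 were kept for the tests, and each of the 10 genes was represented by 1 of the 24150 features tested. The probe left out was one of 3 for Ptger4, which was not well above background on any of the 9 arrays. The samples were glomeruli, the capillary tufts that filter the blood, isolated with magnetic beads from male BTBR mice at 22 weeks of age, 3 samples in each group. In the first group, leptin-deficient BTBR ob/ob mice, which become obese and diabetic, received food containing enarodustat for 18 weeks. In the second, BTBR ob/ob mice received vehicle food for the same time, and in the third, BTBR wild type mice received vehicle food. Enarodustat blocks prolyl hydroxylases, enzymes whose action leads to the breakdown of hypoxia-inducible factor (HIF). No wild type mice on enarodustat were analysed here, and the labels do not say whether a sample is 1 mouse or a pool, so the p-values measure the spread between these samples.

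Prostaglandins are lipid signals made on demand. Phospholipase A2 frees arachidonic acid from membranes, a cyclooxygenase turns it into prostaglandin H2, and a terminal synthase converts that into prostaglandin E2, prostaglandin D2 or prostacyclin, which leave the cell and bind G protein-coupled receptors on the same cell or its neighbours. In the glomerulus they are known for dilating the afferent arteriole, for driving renin release and for acting on podocytes and mesangial cells, and inhibitors of the cyclooxygenases are known to lower filtration when blood flow to the kidney is already poor.

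Levels are given as log2 of the processed Cy3 signal minus the 75th percentile of the same array, so that a level of 0 lies at that percentile and a negative level below it. A level depends on the probe's own brightness and is compared only between arrays for the same probe. Changes are differences of group means on this log2 scale, with the standard error (SE) of limma's linear model over all 9 arrays. A gene was called at a Benjamini-Hochberg adjusted p under 0.05, adjusted over all features of the comparison. The 3 arrays of a group limit the precision. The 75th percentile of the signal lay between 210.4 and 325.3 intensity units, and 62.3% to 68.3% of probes were well above background. All 10 podocyte markers, Nphs1 and Wt1 among them, were well above background on every array. Wild type replicate 3 and enarodustat replicate 2 stood apart in proximal tubule markers, whose log2 summed signal was 7.35 in enarodustat replicate 2 and 8.95 in wild type replicate 3, while on the other 7 arrays it lay between 3.63 and 5.69. None of the 10 proximal tubule markers was called in any comparison. Enarodustat replicate 3 was the one array on a second slide, so the slide cannot be told apart from that array.

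Between ob/ob vehicle and wild type glomeruli the cyclooxygenases and 2 of the synthases were higher in ob/ob, and 1 synthase was lower. Hpgds, Ptgis, Ptgs2 and Ptgs1 rose (4 of 10 genes) and Ptgds fell (1 of 10), where 7.55% of all features were called in this comparison, 4.89% higher and 2.66% lower. The 3 arrays of each group did not overlap for these 5 genes (4 higher, 1 lower), as for 30.7% of all features, 17.8% higher and 12.9% lower. The 5 genes not called were Ptges and the 4 receptors. Without wild type replicate 3 and enarodustat replicate 2, the arrays with high proximal tubule markers, Ptgis, Ptgs2 and Ptgs1 were still called higher (log2 changes of 1.46, 1.87 and 1.08, adjusted p up to 0.0392) and the fall of Ptgds was not (-1.48, adjusted p 0.0836). The median change of the 10 genes, Hpgds included, was 0.31 on the log2 scale, against 0.016 for all features. With Hpgds left out, the middle change was that of Ptges, 0.027, so the higher median rests on Hpgds. Hpgds entered the tests through the ob/ob vehicle arrays alone, since in no other group was it well above background on every array, so it had to differ and its call adds nothing to the count.

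**Figure D1:**
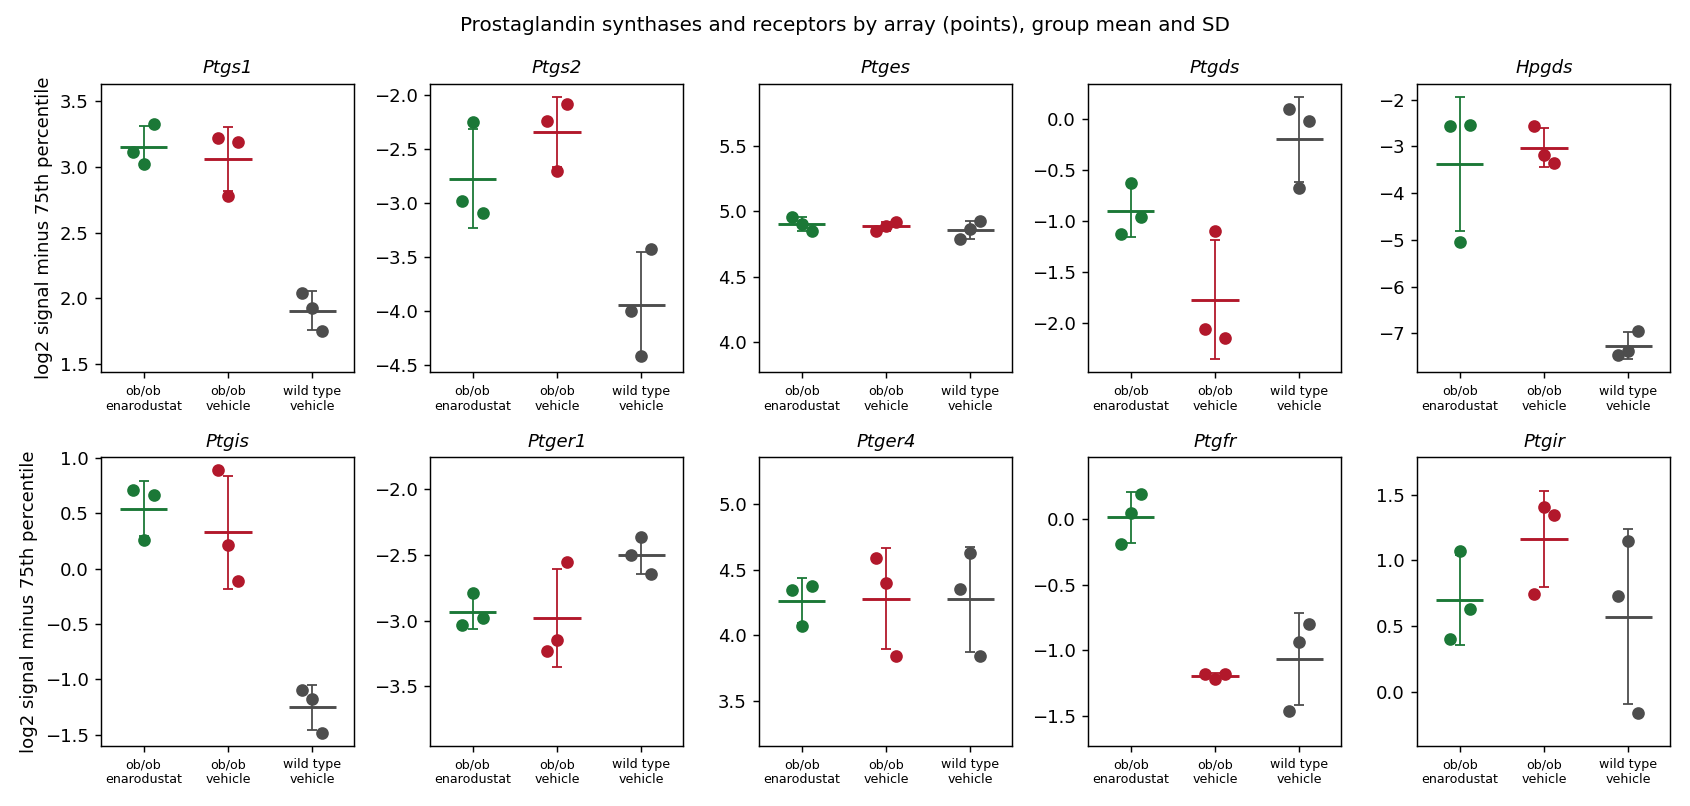
Level of each of the 10 genes on each array (points), with the group mean (line) and SD (bar) for ob/ob enarodustat, ob/ob vehicle and wild type vehicle, 3 arrays each. The y axes give log2 signal minus the array's 75th percentile and differ between panels. Ptgs1, Ptgs2, Hpgds and Ptgis lie higher in both ob/ob groups than in wild type, and Ptgfr lies higher on the 3 enarodustat arrays than on the other 6.

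Ptgs1 encodes the constitutive cyclooxygenase, which makes prostanoids at rest in platelets, vessels and kidney. Its level was 3.12, 3.03 and 3.33 on the enarodustat arrays and 3.22, 2.78 and 3.19 on the ob/ob vehicle arrays, against 2.04, 1.92 and 1.75 on the wild type arrays. Every ob/ob array lay above every wild type array, and the 2 ob/ob groups overlapped. The change was 1.16 ± 0.16 (SE) in ob/ob vehicle over wild type, a 2.23-fold difference with a limma adjusted p of 0.00484, and 1.25 ± 0.16 in enarodustat over wild type (adjusted p 0.00384). Between enarodustat and ob/ob vehicle the change was 0.093, with a 95% interval of -0.26 to 0.45. The probe behind these values lies at base 2718 of NM_008969 (mm9, chr2:36107644-36107703, + strand), and a second probe, on the transcript ENSMUST00000151351 (chr2:36096929-36096988, + strand), lies at lower coordinates. Both are shown because they are annotated to different transcripts of the gene.
Ptgs1 probe, NM_008969: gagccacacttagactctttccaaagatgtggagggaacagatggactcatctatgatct
Ptgs1 probe, ENSMUST00000151351: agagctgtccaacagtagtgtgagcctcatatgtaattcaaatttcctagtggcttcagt
The second probe changed by 0.57 ± 0.17 in ob/ob vehicle over wild type without passing the threshold (adjusted p 0.0860, from a fit in which probes were not joined by gene), and by 1.00 ± 0.17 in enarodustat over wild type (adjusted p 0.0104). In enarodustat over ob/ob vehicle it changed by 0.43 ± 0.17 (p 0.0332, adjusted p 0.745), and those groups did not overlap on it.

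Ptgs2 encodes the inducible cyclooxygenase, known in the kidney from the macula densa, from podocytes and from inflammation. Its level was -2.99, -2.25 and -3.09 on the enarodustat arrays and -2.23, -2.71 and -2.08 on the ob/ob vehicle arrays, against -4.00, -4.42 and -3.43 on the wild type arrays. The wild type arrays were again the 3 lowest. The change was 1.61 ± 0.31 in ob/ob vehicle over wild type (3.05-fold, limma adjusted p 0.0177) and 1.18 ± 0.31 in enarodustat over wild type (2.26-fold, adjusted p 0.0479). Between enarodustat and ob/ob vehicle it was -0.43, with a 95% interval of -1.14 to 0.27. In ob/ob vehicle over wild type the call failed with wild type replicate 2 left out (1.38, adjusted p 0.0598), without ob/ob vehicle replicate 1 (1.56, adjusted p 0.0662) and without ob/ob vehicle replicate 3 (1.48, adjusted p 0.0599), within a range of 0.00164 to 0.0662 over all alternatives. With normexp background correction the change was 0.65, still called (adjusted p 0.0141).

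Markers of the cells known for Ptgs2 are set beside it. Of 10 monocyte and macrophage markers, 8 rose in ob/ob vehicle and 6 in enarodustat over wild type, with log2 sums of 6.23 to 6.54 in enarodustat and 6.58 to 6.60 in ob/ob vehicle glomeruli, against 6.05 to 6.23 in wild type glomeruli. The sum weighs bright markers most, and Itgam, the brightest, was not called. The mean log2 level of these markers was 1.43 to 1.93 in enarodustat and 1.91 to 2.24 in ob/ob vehicle, against 0.38 to 0.81 in wild type. Of 10 podocyte markers, 6 fell in ob/ob vehicle and 8 in enarodustat against wild type, and their log2 summed signal was 9.39 to 9.73 in enarodustat and 9.61 to 9.97 in ob/ob vehicle glomeruli, against 10.13 to 10.27 in wild type glomeruli. Of 6 thick limb and macula densa markers tested, 1 fell in ob/ob vehicle against wild type (Egf, epidermal growth factor, by 1.26) and none was called in enarodustat against wild type. Their log2 summed signal was 5.83 to 6.53 in enarodustat and 3.50 to 5.03 in ob/ob vehicle glomeruli, against 4.85 to 6.86 in wild type glomeruli. The part of these markers in the Ptgs2 change was not tested.

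The probe for Ptgs2 lies at base 3746 of NM_011198 (mm9, chr1:151954744-151954803, + strand). Its promoter is shown with it because the study's drug acts on HIF, which binds DNA at a short core, ACGTG or GCGTG. The RefSeq window of GRCm38.p6 holds 250 bases before the start and 50 after it (chr1:150099781-150100080, + strand). Capitals mark the cores ACGTG and GCGTG and the cyclic AMP response core TGACG, each searched on both strands.
Ptgs2 probe, NM_011198: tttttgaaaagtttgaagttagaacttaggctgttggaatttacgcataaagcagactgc
Ptgs2 promoter, RefSeq: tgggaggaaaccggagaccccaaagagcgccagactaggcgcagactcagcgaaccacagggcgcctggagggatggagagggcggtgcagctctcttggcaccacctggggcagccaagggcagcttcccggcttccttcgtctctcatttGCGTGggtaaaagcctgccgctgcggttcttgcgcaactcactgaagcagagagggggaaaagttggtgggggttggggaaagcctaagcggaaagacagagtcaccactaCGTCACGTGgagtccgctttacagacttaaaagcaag
Counted with the start as base 1, ACGTG begins at base 18 on the + strand and at base 17 on the - strand, TGACG begins at base 14 on the - strand and overlaps both, and GCGTG begins at base -98. Of the 32851 promoters in the table, 43.8% hold at least 1 of the HIF cores and 20.8% hold the core TGACG. Of the 8 genes with a promoter in the table, Ptges holds GCGTG at base -165 and Ptgds an NF-kB consensus at base -22, a motif found in 4.51% of promoters. The windows of Ptgs1, Hpgds, Ptgir, Ptger4 and Ptgfr hold none of the motifs searched, the TATA box TATAAA (13.6% of promoters) included.

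Hpgds, the hematopoietic prostaglandin D2 synthase of mast cells, macrophages and T cells, was higher in both ob/ob groups than in wild type. On its brighter probe the level was -2.56, -5.04 and -2.53 in enarodustat glomeruli and -2.57, -3.18 and -3.35 in ob/ob vehicle glomeruli, against -7.47, -7.39 and -6.94 in wild type glomeruli. The gene was not well above background on any wild type array nor on enarodustat replicate 2. A fold is therefore given as the mean of the brighter group over a wild type mean. In that wild type mean each array has the higher of its own value and the lowest signal among its probes well above background. It is a lower bound where every array of the brighter group was well above background. Hpgds was at least 4.46-fold higher in ob/ob vehicle than in wild type glomeruli (limma adjusted p 0.00603). In enarodustat the same calculation gave 3.51-fold over wild type (adjusted p 0.00806). The enarodustat mean includes replicate 2 at its measured signal, which was not well above background, so 3.51 is not a strict lower bound. The measured changes, which rest on wild type signals at background and give no size, were 4.23 ± 0.61 and 3.89 ± 0.61, and with normexp correction and an offset of 50 they were 0.69 and 0.65, both still called (adjusted p 0.0420 and 0.0442).

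Both Hpgds probes are shown, since the second one also lay higher in both ob/ob groups. The first spans chr6:65070081-65073609 on the mm9 genome, which is longer than its 60 bases, and the second lies at chr6:65080760-65080819, both on the - strand.
Hpgds probe, NM_019455: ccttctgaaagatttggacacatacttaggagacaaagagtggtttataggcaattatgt
Hpgds probe, XM_006506399: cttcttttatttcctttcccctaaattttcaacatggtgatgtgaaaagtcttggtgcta
On the second probe the level was -3.43, -4.90 and -3.65 in enarodustat glomeruli and -3.35, -3.49 and -3.41 in ob/ob vehicle glomeruli, against -7.25, -6.16 and -6.87 in wild type glomeruli. It was at least 3.41-fold higher in ob/ob vehicle than in wild type glomeruli (adjusted p 0.00316 with probes not joined by gene). In enarodustat the calculation gave 2.29-fold over wild type (adjusted p 0.00554), again not a strict bound, since replicate 2 was not well above background. On both probes enarodustat replicate 2 was the lowest ob/ob array. The change of the gene in enarodustat over ob/ob vehicle was -0.35 ± 0.61, and without that array it was 0.48, neither of them called.

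Of 10 monocyte and macrophage markers, 8 rose in ob/ob vehicle over wild type (Adgre1, a surface marker of macrophages, by 2.82 ± 0.49, and Cd68 by 1.38 ± 0.26), with the sums and means given beside Ptgs2. Of 8 mast cell markers, 5 were tested and none was called in any comparison, and their log2 summed signal was -0.27 to 0.095 in enarodustat and -0.26 to 0.050 in ob/ob vehicle glomeruli, against -0.13 to -0.10 in wild type glomeruli. The mast cell proteases Cpa3, Mcpt4 and Mcpt1 were not well above background on every array of any group. Of 7 platelet markers, platelets being a known source of Ptgs1 activity, 6 were tested and Pf4, platelet factor 4, rose by 2.63 ± 0.43 in ob/ob vehicle over wild type. Their log2 summed signal was 0.27 to 0.99 in enarodustat and 0.35 to 2.31 in ob/ob vehicle glomeruli, against -0.53 to -0.18 in wild type glomeruli. The part of these cells in the Hpgds, Ptgs1 and Alox5 changes was not tested, and in whole glomeruli more cells of a type and more RNA per cell cannot be told apart.

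**Figure D2:**
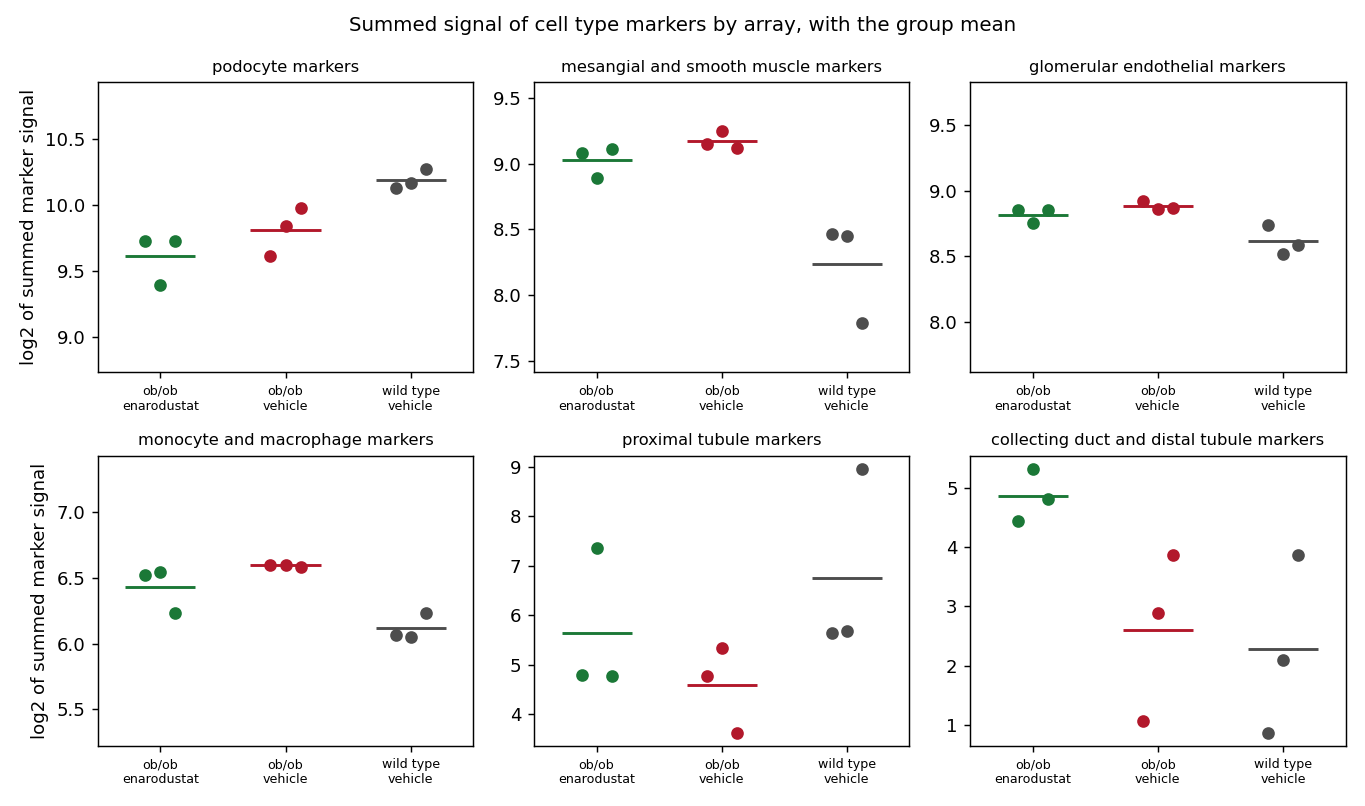
Log2 of the summed signal of 6 marker lists on each array (points), with the group mean (line), for ob/ob enarodustat, ob/ob vehicle and wild type vehicle glomeruli, 3 arrays each. Podocyte markers are lower on all ob/ob arrays than on the wild type arrays, macrophage markers are highest on the ob/ob vehicle arrays, proximal tubule markers are high on 1 enarodustat and 1 wild type array, and collecting duct and distal tubule markers are highest on the 3 enarodustat arrays (4.45 to 5.31).

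Ptgds, the lipocalin-type prostaglandin D2 synthase, which also carries small lipids, moved the other way from Hpgds in ob/ob glomeruli. Its level was -1.13, -0.63 and -0.96 on the enarodustat arrays and -2.06, -1.10 and -2.15 on the ob/ob vehicle arrays, against 0.095, -0.67 and -0.017 on the wild type arrays. The ob/ob vehicle arrays lay below the wild type arrays without overlap, and the enarodustat arrays lay between, overlapping both. Ptgds fell by 1.57 on the log2 scale (SE 0.31) in ob/ob vehicle against wild type, a 2.97-fold difference with a limma adjusted p of 0.0200. In enarodustat over ob/ob vehicle the change was 0.87 ± 0.31 (p 0.0226, adjusted p 0.708), and in enarodustat over wild type it was -0.71 ± 0.31 (adjusted p 0.189), neither called.

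The fall of Ptgds rested on several arrays. It was no longer called without wild type replicate 1 (-1.43, adjusted p 0.0547) or 3 (-1.48, adjusted p 0.0706), nor without ob/ob vehicle replicate 1 (-1.43, adjusted p 0.0761) or 3 (-1.38, adjusted p 0.0649). Over all alternatives the adjusted p ranged from 0.00959 to 0.0836. Its 1 probe lies at base 746 of NM_008963 (mm9, chr2:25322232-25322291, - strand).
Ptgds probe, NM_008963: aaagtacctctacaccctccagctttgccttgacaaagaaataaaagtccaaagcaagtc

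Ptgis encodes prostacyclin synthase, the enzyme of vessel walls that makes a dilator and inhibitor of platelets. On its brightest probe the level was 0.71, 0.25 and 0.66 in enarodustat glomeruli and 0.88, 0.21 and -0.11 in ob/ob vehicle glomeruli, against -1.10, -1.17 and -1.48 in wild type glomeruli. All 6 ob/ob arrays lay above the wild type arrays. The change was 1.58 ± 0.25 in ob/ob vehicle over wild type (2.99-fold, limma adjusted p 0.00882) and 1.79 ± 0.25 in enarodustat over wild type (3.46-fold, adjusted p 0.00590). Between enarodustat and ob/ob vehicle it was 0.21, with a 95% interval of -0.37 to 0.79. Of 10 endothelial markers, 1 was called higher in ob/ob vehicle over wild type (Eng, the co-receptor endoglin, by 0.76 ± 0.15), and of 10 mesangial and smooth muscle markers 3 rose: Acta2, smooth muscle actin, by 1.91 ± 0.31, Ren1, renin, by 1.82 ± 0.45, and Serpine2, a protease inhibitor, by 1.32 ± 0.15. In the same comparison, of 5 interstitial fibroblast markers tested, Dcn, decorin, rose by 1.66 ± 0.38 and Col1a2, a collagen chain, fell by 1.13. Their part in the Ptgis change was not tested.

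The 3 probes of Ptgis did not move together, and they are shown for that reason. The 2 probes on NM_008968 lie at bases 1691 and 1347 (mm9, chr2:167028696-167028755 and chr2:167032305-167032364), and the third, on ENSMUST00000088041, lies at chr2:167017317-167017376, all on the - strand.
Ptgis probe, NM_008968 base 1691: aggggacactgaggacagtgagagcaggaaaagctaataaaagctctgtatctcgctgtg
Ptgis probe, NM_008968 base 1347: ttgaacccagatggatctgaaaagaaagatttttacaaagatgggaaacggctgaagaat
Ptgis probe, ENSMUST00000088041: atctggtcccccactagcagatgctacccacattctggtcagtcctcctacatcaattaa
The probe at base 1347 changed by 1.72 ± 0.31 in ob/ob vehicle and 1.79 ± 0.31 in enarodustat over wild type (adjusted p 0.0142 and 0.0109 with probes not joined by gene). The probe on ENSMUST00000088041 changed by -0.31 ± 0.21 and -0.38 ± 0.21 (adjusted p 0.416 and 0.291) and was not called. With the mean of the 3 probes in place of the brightest, the change was 1.00 in ob/ob vehicle and 1.07 in enarodustat over wild type, both called (adjusted p 0.0219 and 0.0149, within ranges of 0.00232 to 0.0392 and 0.00200 to 0.0314 over all alternatives).

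Ptges, the inducible prostaglandin E2 synthase that works beside Ptgs2, had the smallest changes of the synthases on its brightest probe. Its level was 4.96, 4.91 and 4.85 in enarodustat glomeruli, 4.85, 4.89 and 4.92 in ob/ob vehicle glomeruli and 4.79, 4.86 and 4.92 in wild type glomeruli. The 3 groups overlapped, and the change in ob/ob vehicle over wild type was 0.027, with a 95% interval of -0.19 to 0.25. The other 2 probes gave larger values without passing the threshold. The probe at base 364 of NM_022415 changed by 0.68 ± 0.22 in ob/ob vehicle over wild type (adjusted p 0.0973), with no overlap between the groups. The probe at base 740 changed by 0.91 ± 0.91, and on it the wild type arrays alone spanned -6.66 to -3.75. In enarodustat over wild type the probe at base 364 changed by 0.62 ± 0.22 (adjusted p 0.112). There the probe at base 740 changed by 2.23 ± 0.91 (adjusted p 0.162), and on both probes these groups did not overlap. Over all alternatives the change of the gene in that comparison ranged from -0.091 to 0.965, never called.

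**Figure D3:**
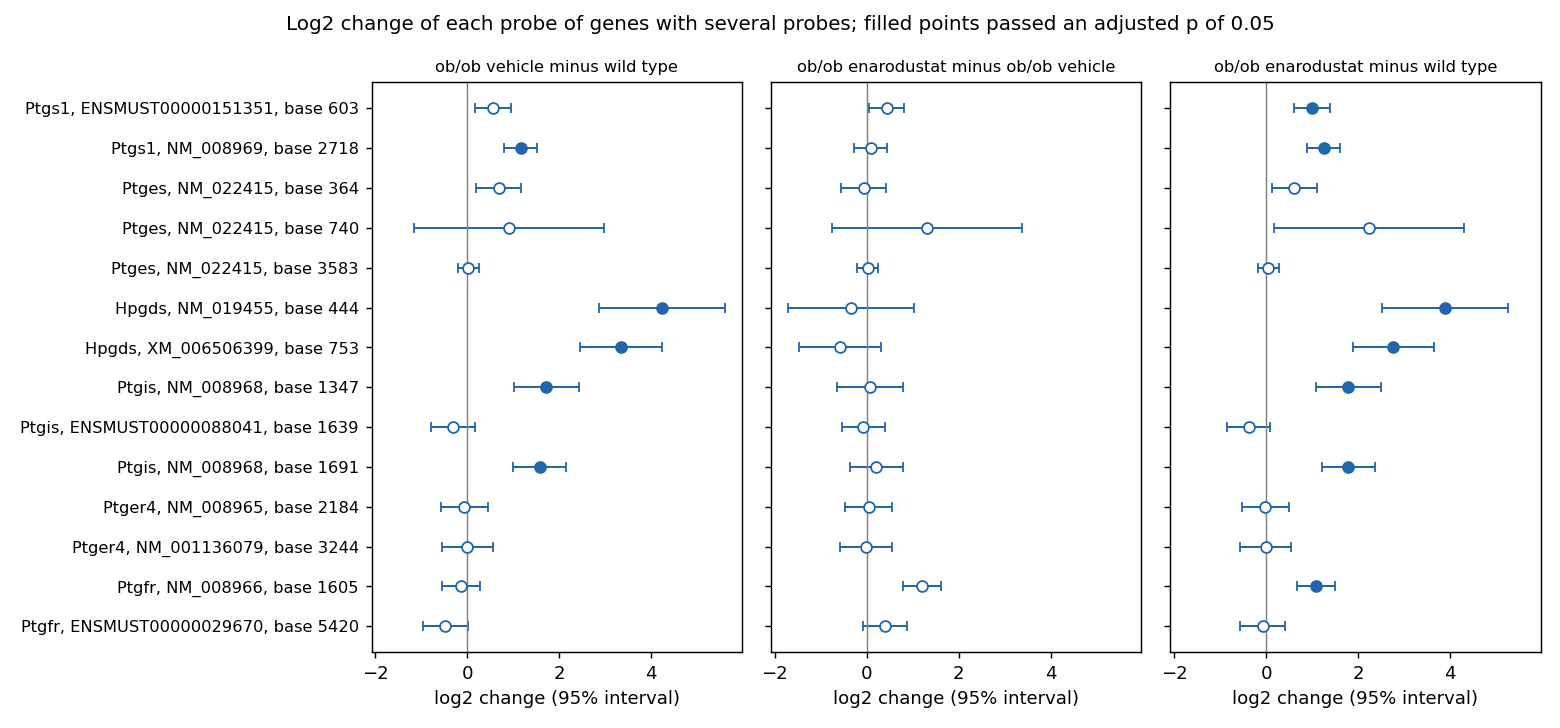
Log2 change of each kept probe of the 6 genes with more than 1 such probe (points) with its 95% interval (bars), in the 3 comparisons. Filled points passed an adjusted p of 0.05 with probes not joined by gene. Both Hpgds probes and 2 of 3 Ptgis probes lie right of 0 against wild type, while the 2 Ptgfr probes part in the comparisons with enarodustat.

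Among the receptors Ptgfr, the receptor of prostaglandin F2-alpha, known in the kidney from the distal tubule, had the smallest p of the 10 genes between enarodustat and ob/ob vehicle, without passing the threshold there. On its brighter probe the level was -0.19, 0.047 and 0.19 in enarodustat glomeruli and -1.18, -1.22 and -1.18 in ob/ob vehicle glomeruli, against -1.47, -0.93 and -0.80 in wild type glomeruli. The 3 enarodustat arrays lay above the other 6, while the ob/ob vehicle arrays lay inside the range of wild type. The change in enarodustat over ob/ob vehicle was 1.21 ± 0.18 (2.31-fold, limma p 0.000117), and 5 of the 24150 features had a smaller p. The adjusted p was 0.377 (with 0.204 to 0.873 over the alternatives). In enarodustat over wild type the change was 1.08 ± 0.18 and was called (2.12-fold, adjusted p 0.00990), and in ob/ob vehicle over wild type it was -0.13 ± 0.18 (adjusted p 0.720).

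The 2 probes of Ptgfr disagreed in size, so both are shown. The brighter one lies at base 1605 of NM_008966 (mm9, chr3:151464323-151464382) and the other at base 5420 of ENSMUST00000029670 (chr3:151460610-151460669), both on the - strand. The RefSeq promoter window of GRCm38.p6 (chr3:151837479-151837778, - strand) is given beside them because the drug acts on HIF, and it has no capitals since it holds none of the motifs searched.
Ptgfr probe, NM_008966: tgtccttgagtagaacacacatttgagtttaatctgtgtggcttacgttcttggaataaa
Ptgfr probe, ENSMUST00000029670: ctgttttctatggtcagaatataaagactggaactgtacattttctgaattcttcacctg
Ptgfr promoter, RefSeq: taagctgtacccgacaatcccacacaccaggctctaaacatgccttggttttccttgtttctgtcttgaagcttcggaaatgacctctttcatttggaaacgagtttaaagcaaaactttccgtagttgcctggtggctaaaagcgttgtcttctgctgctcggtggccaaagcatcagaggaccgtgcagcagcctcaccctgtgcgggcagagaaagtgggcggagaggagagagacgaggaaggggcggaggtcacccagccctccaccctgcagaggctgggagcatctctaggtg
On the second probe the level was -2.11, -2.32 and -1.99 in enarodustat glomeruli and -2.27, -2.51 and -2.86 in ob/ob vehicle glomeruli, against -2.45, -2.01 and -1.75 in wild type glomeruli. Enarodustat overlapped both other groups there. The change was 0.40 ± 0.21 in enarodustat over ob/ob vehicle and -0.072 ± 0.21 in enarodustat over wild type, neither called (adjusted p 0.780 and 0.867 with probes not joined by gene). With the mean of the 2 probes, the change in enarodustat over wild type was 0.50 and no longer called (adjusted p 0.119, with 0.00412 to 0.119 over the alternatives).

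Markers of the tubule segments known for Ptgfr were also higher on the enarodustat arrays, without a call. The log2 summed signal of 9 collecting duct and distal tubule markers was 4.45 to 5.31 in enarodustat and 1.06 to 3.86 in ob/ob vehicle glomeruli, against 0.87 to 3.86 in wild type glomeruli, with none of the 9 called in any comparison. The sums of enarodustat did not overlap those of the other groups. Slc12a3, the sodium chloride carrier of the distal tubule, changed by 3.33 ± 1.01 in enarodustat over ob/ob vehicle (adjusted p 0.683). Array by array, the sum was 4.45, 5.31 and 4.81 in enarodustat and 1.06, 2.89 and 3.86 in ob/ob vehicle, against 0.87, 2.10 and 3.86 in wild type glomeruli. The Ptgfr levels given above ran in the same order as the sums within wild type, and not within enarodustat or ob/ob vehicle. Without each array in turn the Ptgfr change in enarodustat over ob/ob vehicle lay between 1.12 and 1.31. The part of tubule RNA in the Ptgfr change was not tested.

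The other 3 receptors did not pass the threshold in any comparison. Ptger1, the EP1 receptor that signals through calcium, had levels of -3.03, -2.79 and -2.98 in enarodustat glomeruli and -3.23, -3.15 and -2.55 in ob/ob vehicle glomeruli, against -2.50, -2.36 and -2.65 in wild type glomeruli. The ob/ob vehicle arrays overlapped wild type through replicate 3, and the enarodustat arrays all lay below wild type. Its change was -0.48 ± 0.19 in ob/ob vehicle against wild type (adjusted p 0.169), and it was called lower with array weights (-0.61, adjusted p 0.0320) and without ob/ob vehicle replicate 3 (-0.69, adjusted p 0.0392), within 0.0320 to 0.386 over all alternatives. Ptger4, the EP4 receptor that raises cyclic AMP, had levels of 4.35, 4.07 and 4.38 in enarodustat glomeruli, 4.59, 4.40 and 3.85 in ob/ob vehicle glomeruli and 4.36, 4.63 and 3.84 in wild type glomeruli. The groups covered the same range, and a second kept probe changed by -0.062 ± 0.22 in ob/ob vehicle against wild type. Ptgir, the prostacyclin receptor of vessels and platelets, had levels of 0.40, 1.07 and 0.63 in enarodustat glomeruli and 0.74, 1.41 and 1.35 in ob/ob vehicle glomeruli, against 0.73, 1.15 and -0.16 in wild type glomeruli. All 3 groups overlapped, and wild type replicate 3 was the lowest array. Its change in ob/ob vehicle over wild type was 0.59, with a 95% interval of -0.18 to 1.37, so a change such as that of Ptgs1 lies inside it.

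Set out by comparison, enarodustat against ob/ob vehicle gave no call among the 10 genes (0 of 10, against 0% of features) with limma, and no feature was called in the fit of 24150 or with any alternative tried, array weights included. At an unadjusted p under 0.05 there were 1692 features, and 2 of the 10 genes were among them, Ptgfr and Ptgds. Ptgfr was also the 1 gene of 10 whose groups did not overlap, and it was higher. The groups did not overlap for 16% of features, 6.5% higher and 9.49% lower. The median change of the 10 genes was 0.032, against -0.027 for all features. Ptgs1, Ptgs2, Hpgds and Ptgis had 95% intervals that included 0 in this comparison, which leaves changes of the size given with each gene possible.

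Enarodustat against wild type, which joins the genotype and the drug and shares its arrays with the other 2 comparisons, gave 5 of 10 genes called higher (Hpgds, Ptgis, Ptgs1, Ptgs2 and Ptgfr), where 10.2% of features were called, 6.1% higher and 4.09% lower. The groups did not overlap for 6 of 10 genes, these 5 and Ptger1, as for 30.8% of features, 16.8% higher and 14% lower. Hpgds entered the tests through the ob/ob vehicle arrays alone and was at background in wild type, so it adds nothing to either count. The median change, Hpgds included, was 0.61, against -0.0056 for all features. With Hpgds left out, the middle change was that of Ptgir, 0.13. The call of Ptgs2 was the least secure of them. It was lost without each of wild type replicates 1 and 2, ob/ob vehicle replicates 1, 2 and 3, and enarodustat replicates 1, 2 and 3, with changes between 0.91 and 1.33 and adjusted p up to 0.137, within 0.00773 to 0.137 over all alternatives. Without the pair of arrays high in proximal tubule markers Ptgis, Ptgs1, Ptgs2 and Ptgfr were still called, Ptgs2 with a change of 1.17 (adjusted p 0.0484) and Ptgfr with 1.20 (adjusted p 0.0355).

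**Figure D4:**
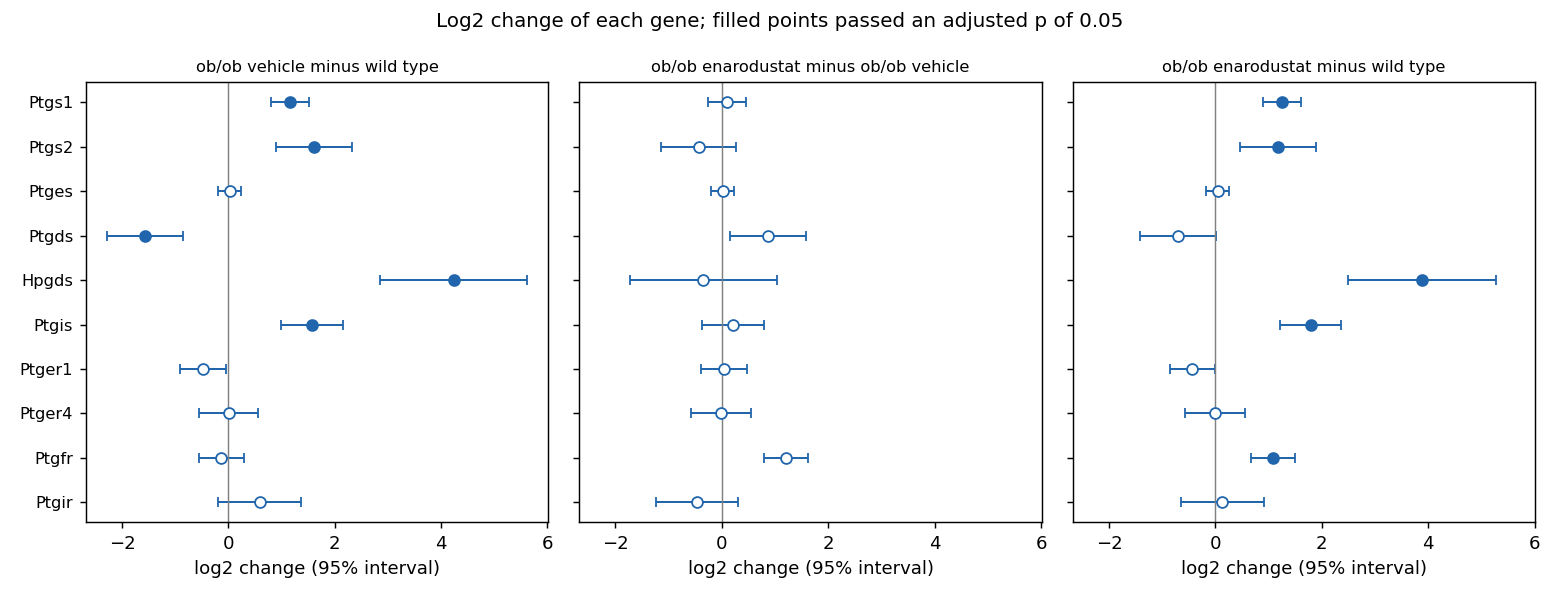
Log2 change of each of the 10 genes (points) with its 95% interval (bars) in the 3 comparisons, from limma on all 9 arrays. Filled points passed an adjusted p of 0.05. In each outer panel, against wild type, 5 points are filled and none in the middle panel, where the Ptgfr interval of 0.80 to 1.62 lies farthest from 0. The Hpgds points against wild type rest on wild type signals at background.

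The steps before and after these genes were read from 4 further lists. Of 15 other prostanoid genes tested, Abcc4, a pump that exports prostaglandins, rose and Ptger2, the EP2 receptor, fell in ob/ob vehicle against wild type (2 of 15, median change -0.13), and Abcc4 rose in enarodustat over wild type (1 of 15, median 0.038). Over all features, 7.55% were called in ob/ob vehicle and 10.2% in enarodustat against wild type, so counts this small do not set the list apart. Ptger2 had levels of -4.19, -3.57 and -3.92 in enarodustat and -3.74, -3.77 and -6.27 in ob/ob vehicle glomeruli, against -1.70, -1.11 and -2.49 in wild type glomeruli. All 6 ob/ob arrays lay below the wild type arrays, and ob/ob vehicle replicate 3 was not well above background. The change was -2.82 ± 0.65 in ob/ob vehicle against wild type (adjusted p 0.0367) and -2.12 ± 0.65 in enarodustat against wild type, not called (adjusted p 0.0777). Without any one of the wild type or enarodustat arrays the first call was lost, with changes of -3.19 to -2.50 and adjusted p of 0.0505 to 0.119. Only 2 of the 3 ob/ob vehicle arrays measured the gene, and without replicate 3, the one not well above background, the change was -1.98 and still called (adjusted p 0.0282, within 0.0282 to 0.119 over the alternatives), so its size depends on that array. Abcc4 had levels of 0.63, 0.86 and 0.79 in enarodustat and 0.53, 0.53 and 0.88 in ob/ob vehicle glomeruli, against -0.20, -0.38 and 0.041 in wild type glomeruli. Its change was 0.82 ± 0.15 in ob/ob vehicle (adjusted p 0.0150) and 0.94 ± 0.15 in enarodustat over wild type (adjusted p 0.00917), and the first was not called without wild type replicate 2 (0.72, adjusted p 0.0564).

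Upstream, 1 of 10 phospholipases A2 was called in each comparison with wild type, a share near the 7.55% of all features in ob/ob vehicle and the 10.2% in enarodustat against wild type. Pla2g4a, the cytosolic phospholipase that supplies the cyclooxygenases, had levels of 3.57, 3.07 and 3.24 in enarodustat and 3.77, 3.31 and 3.64 in ob/ob vehicle glomeruli, against 2.77, 2.48 and 2.33 in wild type glomeruli. The 3 wild type arrays were lowest. It rose by 1.05 ± 0.19 in ob/ob vehicle (adjusted p 0.0130) and by 0.76 ± 0.19 in enarodustat over wild type (adjusted p 0.0370), while its second probe changed by 0.29 ± 0.23 and 0.14 ± 0.23, not called. The first of these calls failed when wild type replicate 2 was left out (1.02, adjusted p 0.0501), and likewise for ob/ob vehicle replicate 1 (0.95, adjusted p 0.0530). The second was lost without wild type replicates 2 or 3, ob/ob vehicle replicate 3 or enarodustat replicates 1 or 3, with changes of 0.63 to 0.79 and adjusted p up to 0.105. Pla2g4b was not called on its brightest probe. A dimmer probe of it, fitted singly, changed by -0.94 ± 0.16 in enarodustat against wild type and was called (adjusted p 0.0113). In ob/ob vehicle against wild type that probe changed by -0.58 ± 0.16, not called (adjusted p 0.0701). The median change of the 10 phospholipases was -0.028 in ob/ob vehicle over wild type and 0.0066 in enarodustat over wild type.

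Arachidonic acid is also the substrate of the leukotriene branch, where 3 of 9 genes rose in ob/ob vehicle over wild type (median 0.43) and 3 rose and 1 fell in enarodustat against wild type (median 0.40). Over all features, 4.89% were called higher in ob/ob vehicle over wild type. In enarodustat against wild type 6.1% were called higher and 4.09% lower. Alox5ap, which presents arachidonic acid to the lipoxygenase, had levels of 2.66, 2.22 and 2.60 in enarodustat and 2.77, 2.37 and 3.44 in ob/ob vehicle glomeruli, against 1.13, 0.86 and 0.71 in wild type glomeruli, a rise of 1.96 ± 0.26 in ob/ob vehicle (adjusted p 0.00480). Ltc4s, leukotriene C4 synthase, had levels of 3.46, 3.69 and 3.86 in enarodustat and 3.22, 3.28 and 3.60 in ob/ob vehicle glomeruli, against 2.25, 2.09 and 1.51 in wild type glomeruli, a rise of 1.42 ± 0.21 in ob/ob vehicle (adjusted p 0.00660). For both genes the wild type arrays lay below all others. Alox5, the lipoxygenase itself, was not well above background on any wild type array and was at least 2.27-fold higher in ob/ob vehicle (adjusted p 0.0179) and at least 2.73-fold higher in enarodustat (adjusted p 0.00956) than in wild type. The first of these calls failed with wild type replicate 2 left out (adjusted p 0.0523) or replicate 3 left out (adjusted p 0.0645), and both failed without the pair of arrays high in proximal tubule markers (adjusted p 0.0895 and 0.0645). Alox5 passed the filter only through the ob/ob groups, where it is high, so its calls add nothing to the counts of this branch. Cysltr2, a receptor of cysteinyl leukotrienes, fell by 1.23 on the log2 scale (SE 0.18) in enarodustat against wild type (adjusted p 0.00670). It changed by -0.48 ± 0.18 in ob/ob vehicle against wild type (adjusted p 0.152). In enarodustat against ob/ob vehicle it changed by -0.75 ± 0.18 (limma p 0.00292, adjusted p 0.626). Neither was called, though the groups did not overlap in either. The gene was dim, with levels of -4.10, -4.22 and -4.61 on the enarodustat arrays.

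Of 12 partners that carry the receptors' signals to cyclic AMP and calcium, none was called in ob/ob vehicle against wild type and 1 in enarodustat against wild type. Over all features 7.55% and 10.2% were called in these comparisons, so counts this small do not set the list apart. Pde4b, a phosphodiesterase that breaks down cyclic AMP, fell by 1.13 (SE 0.21) in enarodustat against wild type (adjusted p 0.0129). In ob/ob vehicle against wild type its change was -0.71 ± 0.21, not called (adjusted p 0.0760). Pde4b probes disagreed here, since 2 others, fitted singly, fell in ob/ob vehicle against wild type by 0.97 and 3.28 (adjusted p 0.0296 and 0.00168). Gnaq, the G protein subunit that leads to calcium release, had the next smallest p and changed by 0.42 ± 0.12 in ob/ob vehicle over wild type, not called (adjusted p 0.0791). In the other prostanoid list and the phospholipases, Ptger2 and Abcc4, and Pla2g4a and Pla2g2e, had the smallest p in ob/ob vehicle against wild type, and Pla2g2e, a secreted phospholipase, changed by -0.33 ± 0.17 (adjusted p 0.302). None of the genes of the 4 lists was called in enarodustat against ob/ob vehicle.

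**Figure D5:**
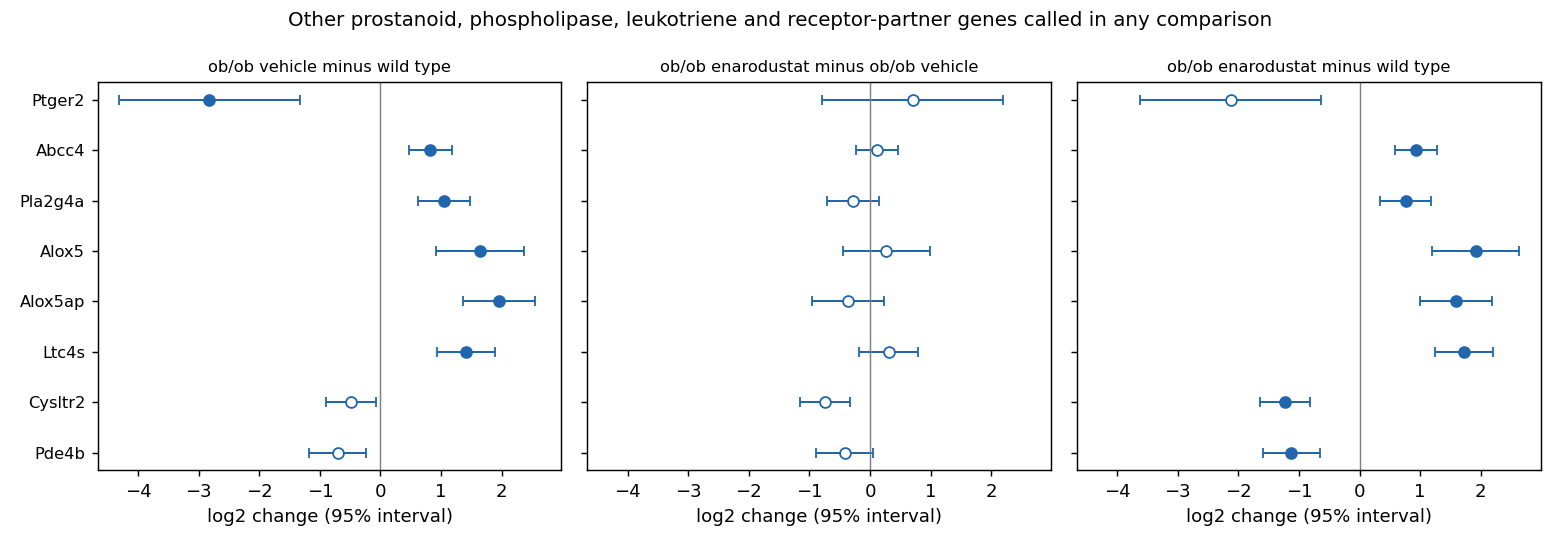
Log2 change (points) with its 95% interval (bars) of the 8 genes of the other prostanoid, phospholipase, leukotriene and receptor partner lists that were called in at least 1 comparison. Filled points passed an adjusted p of 0.05. Abcc4, Pla2g4a, Alox5, Alox5ap and Ltc4s are filled right of 0 in both comparisons with wild type, and no point is filled between enarodustat and ob/ob vehicle. The Alox5 points against wild type rest on wild type signals at background.

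For each of the 6 genes called in a comparison, the genes with the most similar course over the 9 arrays were sought among 15447 named features, by the root mean square (RMS) difference of levels centred on each gene's mean. Ptgs1 was followed most closely by Hcls1, Plin2 and Srgn, with RMS differences of 0.089, 0.094 and 0.097 log2 units, where its own RMS deviation was 0.59. For Ptgfr they were Odf4, Cadps2 and Lrrc75b, with RMS differences of 0.19, 0.19 and 0.21 against a deviation of 0.58. Ptgis came nearest to Ccdc158, Stbd1 and Edn1, which encodes the vasoconstrictor endothelin, with RMS differences of 0.17, 0.21 and 0.22 against 0.85. In log2 units the differences were larger for Ptgs2 (Plxnc1, Ly6g and Fpr2, 0.27 to 0.28 against 0.77), Ptgds (Ces2g, Fras1 and Zkscan7, 0.27 to 0.31 against 0.74) and Hpgds (Tecrl, Smpd3 and Elmod1, 0.62 to 0.69 against 2.05). Such a difference is not scaled to a gene's own deviation, so it does not rank how alike the courses are. These are descriptions over the 9 arrays, which also gave the calls.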

How the data were processed

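The data were 9 single-colour (Cy3) Agilent arrays of total RNA from isolated glomeruli, 3 in each of 3 groups, with 62976 spots each. The deposited values were background-subtracted and detrended spot intensity, per the file headers, with Agilent Feature Extraction 11.5.1.1. Limma is named there too, per the submitters' processing notes, which give it no role. The authors also deposited log2 values, which was used as an alternative. Spots of a probe were averaged without outlier spots and controls (32 probes had outlier spots alone), and no probe was saturated. Each array's 75th percentile was subtracted on the log2 scale, and 36671 of 56605 probes, those well above background on all 3 arrays of 1 or more groups, were kept. A gene was read from its brightest kept probe, which gave 24150 features. Probes were named through RefSeq GRCm38.p6 by accession (32994), symbol (10224) or synonym (520), or by the file's own name (2574), and 10293 had none. Probe coordinates are those of the files, on mm9. A 3-group model was fitted with limma 3.58.1 in R 4.3.3, with Benjamini-Hochberg adjustment over all features, after tests on simulated data. Figures used Python 3.11.15, pandas 2.3.3 and matplotlib 3.10.9.

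The genes, pathway lists and marker lists were chosen with earlier results of these data known. Beside the 10 genes, the text names pathway genes called in any comparison, the 2 with the smallest p of each pathway list in ob/ob vehicle against wild type, and the 3 genes most like each called gene. Pla2g4b is named for a probe that was called when fitted singly. Markers are named where they stand beside a result. Alternatives were quantile normalization, normexp background correction with an offset of 50, the array median, no filter on dim probes or a stricter one, other ways to join probes, the deposited log2 values, a variance trend, array weights, only the groups compared, a replicate block, and each array left out. The pathway genes were refitted only without arrays, an alternative chosen after seeing the data.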

Additional observations from a re-analysis of the deposited data

How the results depend on the processing

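Over 30 gene changes and 657 alternatives, 591 kept their direction and their side of the threshold, 22 lost a call, 2 gained one (Ptger1) and 42 turned in sign, all of them in changes not called. For the 13 called changes of pathway genes, 110 of 130 alternatives kept the call, 20 lost it and none turned. The calls of Ptgs1, Hpgds and Ptgis held in both comparisons with wild type under all alternatives, except that Hpgds, which was at background in wild type, had no value when probes had to be well above background on all 9 arrays. The alternative with single probes counted only the brightest probe of each gene. The second Ptgs1 probe was not called in ob/ob vehicle over wild type (adjusted p 0.0860), and the Ptgis probe on ENSMUST00000088041 in neither comparison. Hpgds passed the filter only through the ob/ob vehicle arrays, so its calls had to be likely from the start. The number of features called in ob/ob vehicle against wild type was 1823, and it was 1005 without the filter, 4181 with array weights and 906 to 1770 without each array in turn, with 3 to 5 of the 10 genes called, 3 of them without ob/ob vehicle replicate 1. In enarodustat against wild type it was 2460, and it was 1227 without the filter, 4528 with array weights, 1291 without the pair of arrays high in proximal tubule markers (wild type replicate 3, enarodustat replicate 2), and 1219 to 2175 without each array in turn, with 4 to 5 genes called. With more features tested and no filter, or with fewer arrays, fewer calls follow in part from the construction, and the cause was not tested further. Ptgs2 in enarodustat against wild type was also not called without the filter (adjusted p 0.103), with only the groups compared (0.0819) or with normexp correction (0.43, adjusted p 0.0558), and Ptgds in ob/ob vehicle against wild type with only the groups compared (adjusted p 0.0516).

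With the replicate block 1408 features were called in ob/ob vehicle against wild type, 0 in enarodustat against ob/ob vehicle and 1954 in enarodustat against wild type, with 5, 0 and 4 of the 10 genes. Ptgs2 lost its call in enarodustat against wild type (adjusted p 0.0843). Deviations of same-numbered arrays correlated between -0.308 and 0.272, with both signs. They show no steady pairing, but so few arrays cannot settle whether the numbers pair the samples. A slide block is the same as leaving out enarodustat replicate 3, the one array on its slide, and was not run on its own.

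None of the changes that turned in sign was called. In the main fit the largest of them was Hpgds in enarodustat against ob/ob vehicle (-0.35), and its alternatives ranged widely. In ob/ob vehicle against wild type Ptges was -0.12 with quantile normalization, -0.079 with normexp correction and -0.0083 to 0.060 without single arrays. Ptger4 was -0.12 with quantile normalization, -0.14 with normexp correction, -0.029 with the mean of its probes, -0.24 with array weights, -0.21 without both arrays high in proximal tubule markers and -0.21 to 0.22 without single arrays. Ptgfr was 0.0052 without both and -0.33 to 0.0052 without single arrays. In enarodustat against ob/ob vehicle Ptgs1 was -0.049 to 0.17, Ptgis -0.0076 to 0.49 and Hpgds -0.77 to 0.48 without single arrays, and Hpgds was 0.48 without both. Ptges was -0.042 with the array median and -0.0080 to 0.047 without single arrays. Ptger1 was -0.016 with quantile normalization, -0.019 with normexp correction, -0.016 with the array median, -0.027 without both and -0.082 to 0.26 without single arrays. Ptger4 was 0.0009 with quantile normalization, 0.015 with normexp correction, 0.015 with the mean of its probes, 0.082 without both and -0.23 to 0.14 without single arrays. In enarodustat against wild type Ptges was -0.091 with quantile normalization and -0.059 with normexp correction, Ptger4 was -0.23 to 0.17 without single arrays, and Ptgir was -0.38 with array weights, -0.42 without both and -0.24 to 0.42 without single arrays.

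Signal over background limits Hpgds, Alox5 and Ptger2, which were dim in 1 or more groups, and the normexp offset shrinks such changes by its construction. Ptgs2 was well above background on all 9 arrays but low in wild type, so the size of its change also depends on the background correction. Groups of 3 arrays, one probe for 4 of the genes and no wild type mice on enarodustat limit the rest.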
